A study of Mus musculus with 8 samples.

Results

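The responses of mouse macrophages to interferon gamma (IFNg) and to tumour necrosis factor (TNFa) were compared directly, gene by gene, using the FPKM of 1 stimulated library for each agent. FPKM, fragments per kilobase of transcript scaled to the mapped total, is a level that accounts for transcript length and library size. The genes entering the comparison were those whose estimate had the status OK in both deposited tables, 36455 of 36806 genes, and the libraries were 2 of 8 in the study. The cells were bone marrow-derived macrophages of C57BL/6 mice on day 7 of differentiation in medium conditioned by L929 cells, a fibroblast line whose medium supplies the growth factor CSF1. The IFNg culture received 100 ng/ml and the TNFa culture 10 ng/ml, each for 4 h, and another culture was left untreated. The doses differ, so each value belongs to that dose. The other 5 libraries, stimulated for 4 h with IL4, TGFb1, IL1b, MALP2 (a lipopeptide ligand of Tlr2 with Tlr6) or CpG DNA (a ligand of Tlr9), serve only to place the levels. With 1 library in each group, no difference could be set against the spread between replicates, and no test was made. A range in parentheses is the pair of FPKM bounds the authors give for that library.

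IFNg binds a receptor made of Ifngr1 and Ifngr2, to which the kinases Jak1 and Jak2 are attached; their signal reaches genes through a DNA element called GAS. Among its targets are the transcription factors Irf1 and Irf8, which carry the response on through a related element, the ISRE. TNFa binds Tnfrsf1a and Tnfrsf1b, which through adaptor proteins release NF-kB from its inhibitor Nfkbia. In macrophages IFNg is known for antimicrobial defence and antigen presentation, and TNFa for inflammatory chemokines and mediators.

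Of 12582 genes at 1 FPKM or more in either library, 941 (7.48%) were at least 2-fold higher in the IFNg library and 606 (4.82%) were at least 2-fold higher in the TNFa library, on the FPKM + 1 scale that all folds below use. The other 11035 genes were within 2-fold. With the further requirement that the authors' bounds do not overlap, 532 (4.23%) and 283 (2.25%) genes were counted. The median log2 difference, IFNg minus TNFa, over all genes compared was -0.06. Genes higher in IFNg had a median level of 37.3 FPKM there, while those higher in TNFa had a median level of 14.3 FPKM in the TNFa library. In the other library of the pair, 50 of the genes higher in IFNg and 79 of those higher in TNFa are listed at 0. Those at the far edge included short RNA genes, such as Snord4a, a small nucleolar RNA, with 1064 FPKM in IFNg, listed at 0 in TNFa and at 499 FPKM untreated. Mir1957a, a microRNA gene, is listed at 0 in IFNg and in the untreated library and stood at 702 FPKM in TNFa. Near the limit of the rule lay Itga4, an integrin subunit, with 40.6 FPKM in IFNg and 19.8 in TNFa, just inside it. Tmbim6, an endoplasmic reticulum membrane protein, lay just outside it with 685 and 342 FPKM.

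The depth is unknown, since no counts are given. It was estimated by taking the upper bound as the FPKM plus 2 standard deviations of a fragment count, which the sources do not state. On that assumption 135 genes rest on a single fragment in both libraries. Their FPKM of 1 fragment was 1.64 times larger in IFNg than in TNFa (quartiles 1.63 and 1.68). By this estimate IFNg was the shallower library. The 11 measured macrophage markers summed to 10522 FPKM in IFNg, 10145 in TNFa and 9460 in the untreated library, and Csf1r, the CSF1 receptor, stood at 1543, 1433 and 1466 FPKM in that order. Stromal and fibroblast markers summed to 292 FPKM in the IFNg library against 139 in TNFa, 132 untreated and 142 to 151 in the other 5. Of the 18 measured stromal markers 8 were higher in IFNg and 0 in TNFa. The IFNg library was the highest of the 8 libraries for 16 of the 18, beside 17.0% of genes compared. Col1a2, a collagen chain, stood at 49.2 FPKM in IFNg, 22.8 in TNFa and 23.2 untreated. In bulk RNA, more cells of a type and more RNA per cell cannot be told apart. Neutrophil markers summed to 462 FPKM in IFNg, 296 in TNFa and 315 untreated. Only 2 T and NK cell markers were measured, and among them Lck, a T cell kinase, stood at 11.2, 0.617 and 0.906 FPKM.

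**Figure D1:**
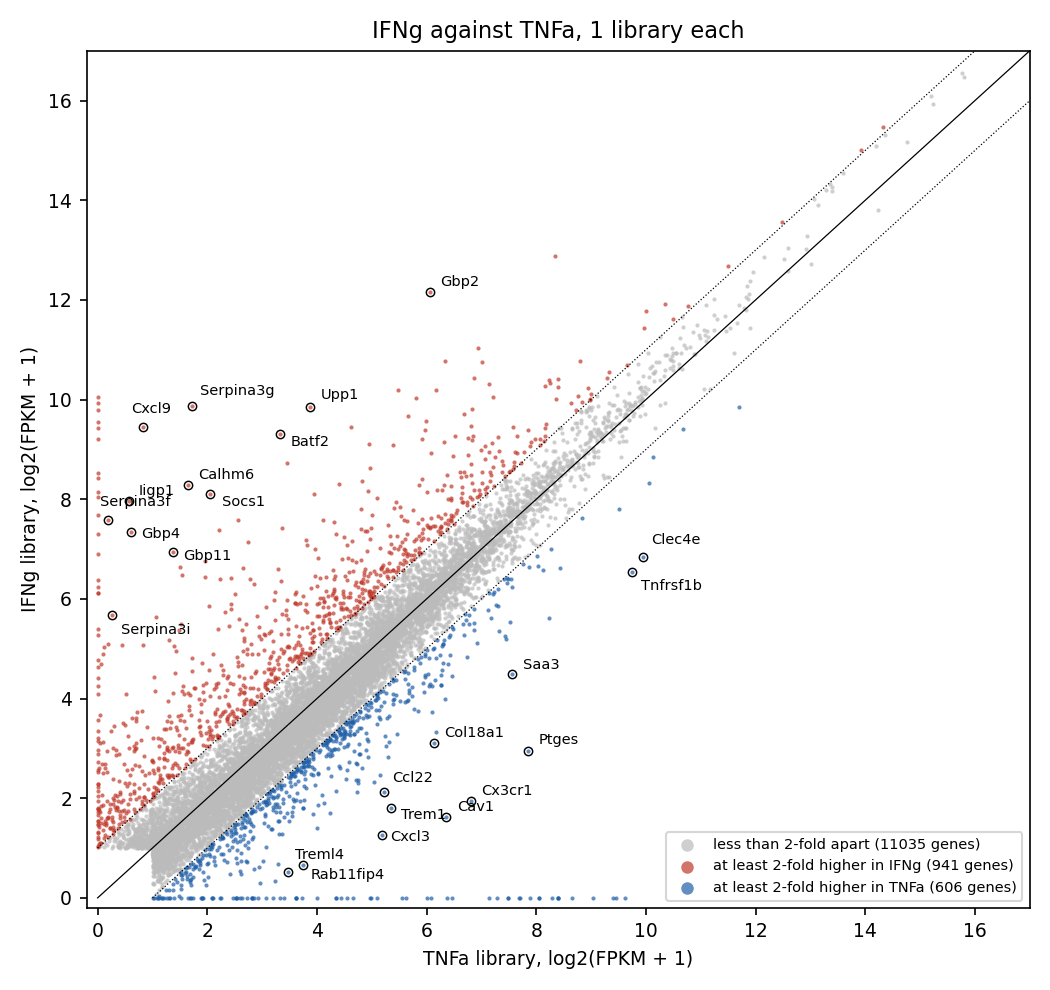
Each point is a gene compared, with log2(FPKM + 1) in the TNFa library on the horizontal axis and in the IFNg library on the vertical axis; coloured points are the genes at least 2-fold higher in one library. Circles mark the 12 named genes farthest apart on each side, up to 391-fold for Cxcl9 and 29.9-fold for Ptges, and the points on the axes are genes listed at 0 in one library.

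Among genes with a symbol and with bounds apart, the IFNg side was led by Cxcl9, a chemokine that draws activated T cells (mm9, chr5:92750357-92757105). Its level was 694 FPKM (186 to 1203) in IFNg, 0.780 (0.353 to 1.21) in TNFa and 0.137 untreated, a 391-fold difference between the stimuli. This fold and the lead rest on the pseudocount of 1 FPKM: with 0.1 FPKM the log2 difference of Cxcl9 went from 8.61 to 9.62, level with Serpina3f at 9.62. In the other 5 libraries it did not pass 0.440 FPKM, so the IFNg library stood alone. Cxcl10, which acts on the same receptor, was the most abundant chemokine of the pair at 7589 FPKM in IFNg, 324 in TNFa and 27.0 untreated. The bounds of Cxcl10 in IFNg were wide (720.2 to 14459) but did not reach those in TNFa (169 to 478). Cxcl11, a gene of the same cluster, stood at 87.9, 1.91 and 0.0316 FPKM. It is annotated as a polymorphic pseudogene, so its RNA level does not show that a working ligand is made. Its deposited locus is the same as that of Cxcl10 and other genes of the cluster. Reads of the cluster's genes may not be separable there. Cxcl10 in the TNFa library was itself well above the untreated level.

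The serine protease inhibitors of the Serpina3 cluster on chromosome 12 were next. Serpina3g, an intracellular inhibitor of cysteine proteases, stood at 938 FPKM (546 to 1329) in IFNg, 2.30 (1.2 to 3.40) in TNFa and 1.16 untreated, a 285-fold difference. Serpina3f stood at 189.6, 0.140 and 0.162 FPKM, and Serpina3i at 50.3, 0.202 and 0.0741. Near-identical copies in this cluster can share reads, so the level of each single gene is uncertain, although all of those named were low in TNFa. Serpina3n stood at 31.7 FPKM in IFNg and 0.0813 in TNFa and is listed at 0 in the untreated library. Among 17 measured serine protease inhibitor genes 9 were higher in IFNg (52.9%, beside 7.48% of all genes), all with bounds apart. Slpi alone was higher in TNFa (5.88%, near the 4.82% of all genes). Slpi, a secreted inhibitor of neutrophil elastase, stood at 8.41 FPKM in IFNg, 21.6 in TNFa and 3.56 untreated. The promoters of Serpina3g, Serpina3f and Serpina3i hold the letters of a GAS element, TTCNNNGAA on either strand. In the 250 bases before the start site of Serpina3n, NF-kB letters (GGGA, any 4 bases, CC, on either strand) were found and GAS letters were not. The promoters with GAS letters are shown to let the spacing around them be compared. The sequences are from RefSeq (GRCm38.p6) and lie before the start site on the + strand. They are at chr12:104236089-104236146, chr12:104214347-104214456 and chr12:104262944-104263053. Capitals mark the GAS letters and, in the last 2, the NF-kB letters upstream of them.
Serpina3g: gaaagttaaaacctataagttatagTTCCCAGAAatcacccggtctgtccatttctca
Serpina3f: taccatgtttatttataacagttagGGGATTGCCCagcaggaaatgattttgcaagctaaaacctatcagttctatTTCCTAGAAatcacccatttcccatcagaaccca
Serpina3i: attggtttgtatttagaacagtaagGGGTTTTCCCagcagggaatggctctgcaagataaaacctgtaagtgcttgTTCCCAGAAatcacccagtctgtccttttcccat

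Guanylate-binding proteins and immunity-related GTPases, which attack the vacuoles of intracellular microbes, formed the group with the largest median difference of the 27 pathway lists. All 18 measured members were higher in IFNg, with bounds apart in all 18, and the median log2 difference was 4.09. The IFNg library was the highest of the 8 in each, beside 17.0% of genes compared. Gbp2 was the most abundant of the pair's Gbp genes, at 4575 FPKM (604 to 8546) in IFNg, 65.9 (36.0 to 95.8) in TNFa and 24.2 untreated. Iigp1 differed most, 169-fold, with 249 FPKM in IFNg, 0.477 in TNFa and 0.521 untreated; its log2 difference of 7.40 became 8.75 with a pseudocount of 0.1 FPKM. Irgm1, a regulator of the other GTPases, stood at 1277, 139.9 and 109 FPKM. The TNFa library was thus close to the untreated one for Iigp1 and Irgm1, and above it for Gbp2. Members of this family are similar in sequence, and Tgtp1 and Tgtp2 in particular can share reads.

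Antiviral genes of the type I interferon response were higher in IFNg in 28 of 40 measured members and higher in TNFa in 0, with a median log2 difference of 1.31 and bounds apart in 14. Samhd1, which breaks down deoxynucleotides, stood at 2093 FPKM in IFNg, 121 in TNFa and 307 untreated. Zbp1, a sensor of nucleic acids, stood at 483, 66.8 and 73.3 FPKM, and Oasl1 at 164.5, 28.3 and 17.3. These separated the stimuli, whereas Ifit1, at 107.5, 85.7 and 32.5 FPKM, and Irf9, at 54.0, 56.1 and 61.5, were within 2-fold. The IFNg library was the highest of the 8 for 39 of the 40, beside 17.0% of genes compared.

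Among the receptor and signalling genes of the IFNg pathway, 10 of 18 were higher in IFNg (55.6%, beside 7.48% of all genes). In TNFa 1 was higher (5.56%), near the 4.82% of all genes, and the median log2 difference was 1.11. The receptor chain Ifngr1 was the member higher in TNFa, at 104 FPKM (55.2 to 153) against 46.7 (24.1 to 69.3) in IFNg and 119 untreated; the bounds overlapped. Ifngr2, Jak1 and Jak2 were within 2-fold between the stimuli, and Jak2 stood at 28.8 FPKM in IFNg, 21.8 in TNFa and 4.13 untreated. So for the kinase Jak2 both stimulated libraries lay above the untreated one, as did the other 5 at 9.92 to 51.5 FPKM. Irf1 stood at 1749 FPKM in IFNg, 79.4 in TNFa and 80.3 untreated, a log2 difference of 4.44, and its lower bound in IFNg (854) was far above its upper bound in TNFa (107). Irf8, a factor of myeloid cells, stood at 1386, 115 and 164 FPKM. Socs1, which inhibits the Jak kinases, stood at 275 FPKM in IFNg, 3.13 in TNFa, 0.863 untreated and up to 90.5 in IL4, another cytokine that signals through Jak kinases.

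Promoters were searched for the GAS and NF-kB letters and for those of the ISRE (GAAA, any 2 bases, GAAA, on either strand). RefSeq gave a promoter, from 250 bases before to 50 after the start site, for 619 of the genes higher in IFNg (821 promoters) and 379 of those higher in TNFa (478 promoters). The ISRE letters were in 9.74% of the first set, 2.93% of the second, 3.42% of promoters of the genes compared and 3.44% of all 32851 promoters. The GAS letters were in 9.38%, 4.81%, 6.91% and 8.3% in the same order. The NF-kB letters were in 26.9%, 27.6%, 26.4% and 20.7%. The share with ISRE letters was thus higher for the IFNg set than for the TNFa set, while the shares with NF-kB letters were close; these are descriptions with no test. A match is a stretch of letters and not a measured binding site. Matches can overlap within a promoter, as in Socs1. Of the 12 named genes farthest apart on each side, 8 on the IFNg side and 11 on the TNFa side had a promoter. Before the start site, GAS letters were in 3 and 2 of these, ISRE letters in 3 and 2, and NF-kB letters in 4 and 3. Examples from genes that stood far above TNFa in the IFNg library are Irf1 (chr11:53769899-53770013, + strand; GAS and NF-kB letters in capitals), Socs1 (chr16:10785579-10785644, - strand; overlapping ISRE letters), Gbp2 (chr3:142620579-142620638, + strand; ISRE letters read on the other strand), Calhm6 (chr10:34128002-34128061, - strand; ISRE letters) and Cxcl10 (chr5:92348958-92349127, - strand; ISRE and, further on, NF-kB letters), each in GRCm38.p6.
Irf1: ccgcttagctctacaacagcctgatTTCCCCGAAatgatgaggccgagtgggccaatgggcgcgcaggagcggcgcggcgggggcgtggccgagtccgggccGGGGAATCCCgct
Socs1: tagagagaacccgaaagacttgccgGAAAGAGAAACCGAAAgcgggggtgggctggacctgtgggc
Gbp2: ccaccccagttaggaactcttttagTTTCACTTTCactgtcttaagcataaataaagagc
Calhm6: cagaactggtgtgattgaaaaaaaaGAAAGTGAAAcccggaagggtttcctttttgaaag
Cxcl10: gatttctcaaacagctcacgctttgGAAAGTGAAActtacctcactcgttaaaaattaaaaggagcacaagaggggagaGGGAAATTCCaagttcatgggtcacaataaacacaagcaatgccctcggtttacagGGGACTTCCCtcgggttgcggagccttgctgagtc

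Of the remaining genes at the head of the IFNg side, Upp1, an enzyme that splits uridine, stood at 920.2 FPKM (668 to 1173) in IFNg, 13.7 (10.3 to 17.1) in TNFa and 0.933 untreated. It is 62.8-fold apart, with the TNFa library also above the untreated one, and reached 34.6 FPKM in MALP2. Batf2, a transcription factor, stood at 635, 9.09 and 7.15 FPKM. Calhm6, a channel-like membrane protein, stood at 310.2 FPKM in IFNg, 2.13 in TNFa and 16.3 untreated. The IFNg library lay above the untreated level, and TNFa lay below it, as did the other 5 stimulated libraries at 0.144 to 4.18 FPKM.

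**Figure D2:**
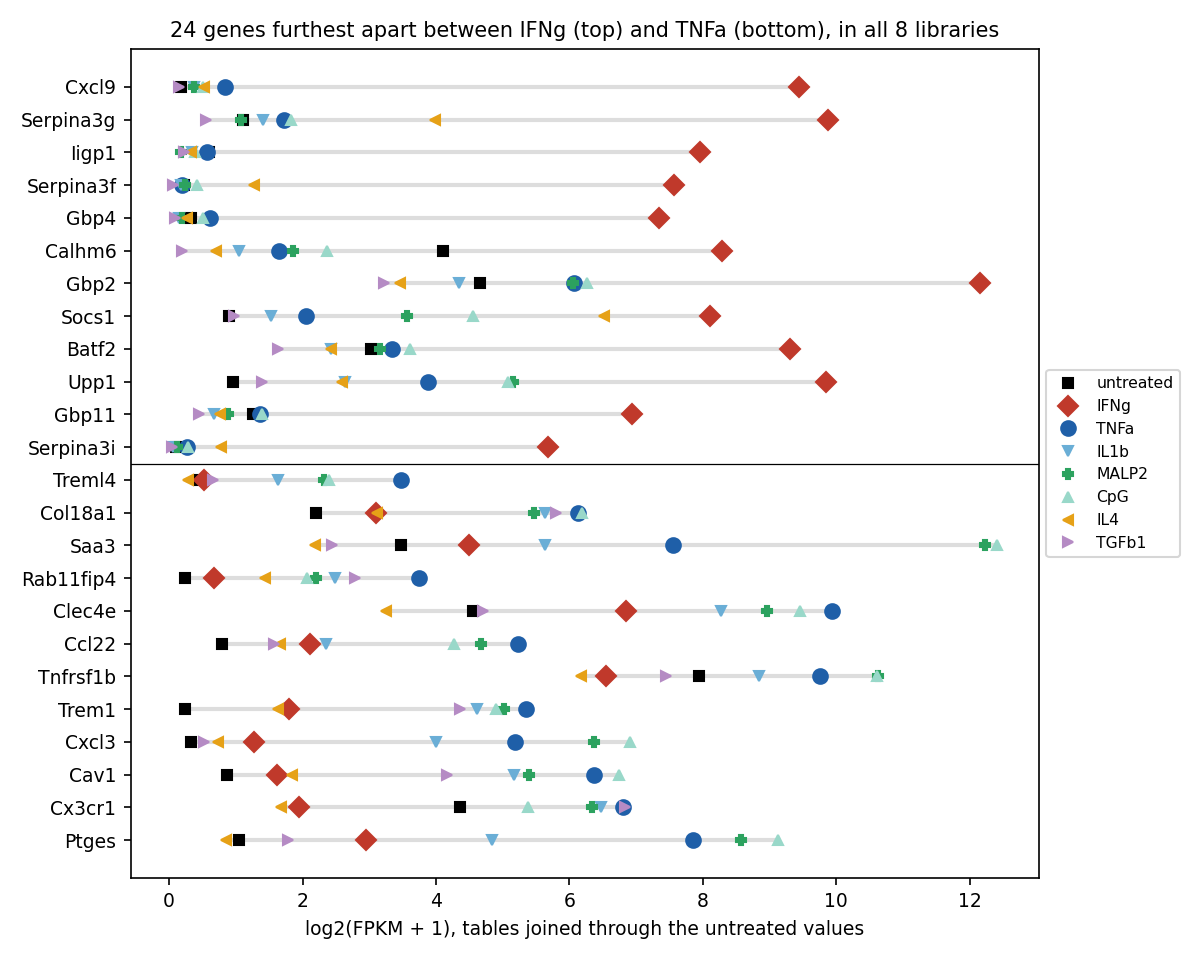
log2(FPKM + 1) of the 12 named genes farthest apart on each side, with 1 marker for each of the 8 libraries and a grey line over their range. The IFNg marker is the highest for all 12 genes of the upper part, while in the lower part other stimulated libraries pass TNFa for several genes. An example is Ptges, at 380 FPKM in MALP2 and at 556 in CpG, where the authors' bounds show no range.

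By the same rule, at a pseudocount of 1 FPKM, the TNFa side was led by Ptges, the terminal enzyme of prostaglandin E2 synthesis (mm9, chr2:30744991-30785383). It stood at 231 FPKM (141 to 320.4) in TNFa, 6.74 (3.82 to 9.66) in IFNg and 1.06 untreated, a 29.9-fold difference. Ptges stood at 380 FPKM (217 to 543) in MALP2 and at 556 in CpG, where both bounds are listed as equal to the level. With a pseudocount of 0.1 FPKM its log2 difference of -5.08 was passed by Cx3cr1 (-5.24) and Cav1 (-5.22). Ptgs2, the inducible enzyme of the preceding step, went the other way, with 83.1 FPKM in IFNg, 5.87 in TNFa and 0.667 untreated. Consecutive enzymes of this route were therefore high in different libraries of this pair. Ptgs2 stood at 93.2 FPKM in MALP2 and 169 in CpG, so both enzymes were high there. Of 16 measured prostaglandin and leukotriene genes 3 were higher in IFNg and 2 in TNFa, the second being Ptgir, the prostacyclin receptor, at 23 FPKM in TNFa and 5.64 in IFNg.

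Cx3cr1, the receptor for the chemokine fractalkine, stood at 111 FPKM (46.4 to 175) in TNFa, 2.84 (0.881 to 4.80) in IFNg and 19.6 untreated. It is on opposite sides of the untreated level and 29.1-fold apart. In the other 5 stimulated libraries Cx3cr1 ran from 2.21 FPKM in IL4 to 113 in TGFb1, so neither level was particular to its library. Cav1, the main protein of caveolae, stood at 81.3 FPKM in TNFa, 2.08 in IFNg and 0.828 untreated, and Cav2, its partner, at 26.2, 6.35 and 11.4. Trem1 and Clec4e, receptors that amplify inflammatory signals, were also higher in TNFa: Trem1 stood at 39.8 FPKM in TNFa and 2.48 in IFNg, and Clec4e at 979.9 and 114. The other 5 stimulated libraries ran from 2.58 to 106 FPKM for Cav1, 2.1 to 31.4 for Trem1 and 8.53 to 699 for Clec4e. The acute-phase protein gene Saa3 stood at 188 FPKM in TNFa, 21.7 in IFNg and 10.2 untreated, and at up to 5458 FPKM in the other libraries, so the TNFa level was far from the highest.

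The receptors and inner components of the TNFa pathway gave a small difference, with a median log2 difference of 0.25. Of 32 measured genes 5 were higher in IFNg (15.6%, beside 7.48% of all genes). In TNFa 2 were higher (6.25%), near the 4.82% of all genes. Tnfrsf1b stood at 863 FPKM (359.8 to 1366) in TNFa, 92.4 (36.6 to 148) in IFNg and 244 untreated. In the other 5 stimulated libraries it ran from 71.1 FPKM in IL4 to 1584 in MALP2, so neither level was particular to its library. The other receptor, Tnfrsf1a, stood at 97.0 FPKM in TNFa, 375 in IFNg and 97.8 untreated, with overlapping bounds between the stimuli. The receptor genes thus differed in opposite directions. Among NF-kB subunit and inhibitor genes, several were within 2-fold between the stimuli: Nfkb1 stood at 217 FPKM in IFNg, 206 in TNFa and 70.5 untreated, Nfkb2 at 101, 122 and 30.1, and Nfkbia at 345, 312 and 53.5. Bcl3, a nuclear member of the inhibitor family, was higher in IFNg with bounds apart, at 143 FPKM in IFNg, 53.4 in TNFa and 32.0 untreated. Tnfaip3, an enzyme that restrains NF-kB, stood at 189.5 FPKM in IFNg, 85.7 in TNFa and 6.66 untreated. Of the 27 measured genes listed as NF-kB targets 7 were higher in IFNg and 5 in TNFa.

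Chemokines divided between the libraries, with 8 of 21 measured genes higher in IFNg, 7 higher in TNFa and a median log2 difference of -0.07, which turned to 0.43 with a floor of 5 FPKM and 0.14 with no floor. Besides the chemokine genes above, the IFNg side held the monocyte attractants Ccl2, at 579.9 FPKM against 113 in TNFa, Ccl7, at 759 against 62.7, and Ccl12, at 1051 against 55.1. The TNFa side included ligands that draw neutrophils and T cells. Cxcl3 stood at 35.3 FPKM in TNFa, 1.41 in IFNg and 0.256 untreated, Cxcl2 at 75.8, 18.2 and 2.05, and Ccl22 at 36.5, 3.34 and 0.732. Ccl9 was the most abundant chemokine gene on the TNFa side, at 3325 FPKM in TNFa, 919.8 in IFNg and 786.5 untreated. In the promoter of Cxcl3 (GRCm38.p6, chr5:90786003-90786063, + strand), shown because Cxcl3 is the chemokine farthest apart on the TNFa side, the NF-kB letters are in capitals.
Cxcl3: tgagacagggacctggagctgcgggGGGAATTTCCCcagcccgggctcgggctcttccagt

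Among 19 measured cytokine and mediator genes 9 were higher in IFNg and 2 in TNFa, with a median log2 difference of 0.91, which was 1.83 with a floor of 5 FPKM and 0.24 with no floor. The gene of TNFa itself, Tnf, stood at 613 FPKM in IFNg, 114 in TNFa and 7.12 untreated. Il27, a regulatory cytokine subunit, stood at 35.1, 1.45 and 0.378 FPKM, and Il1rn, the antagonist of the interleukin 1 receptor, at 1761, 441 and 24.5. Il1b went the other way, at 57.1 FPKM in IFNg and 157 in TNFa with overlapping bounds, and it reached 3135 FPKM in another library. Nos2, the inducible nitric oxide synthase, stood at 48.7 FPKM in IFNg, 1.09 in TNFa and 0.0540 untreated. Acod1, which makes itaconate, was high after both agents, at 2783, 998 and 6.41 FPKM, and its bounds overlapped.

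Antigen presentation genes were higher in IFNg where they differed. Of 21 measured MHC class I and processing genes 9 were higher in IFNg and 0 in TNFa, with a median log2 difference of 0.84 and bounds apart in 3. Tap1, the peptide transporter, stood at 563 FPKM in IFNg, 79.2 in TNFa and 82.2 untreated, and Nlrc5, a transactivator of these genes, at 127, 14.7 and 19.5. The light chain B2m was within 2-fold, at 7428, 4559 and 5245 FPKM. Of 9 measured MHC class II genes 2 were higher in IFNg and 0 in TNFa; these were Ciita, the master regulator, at 21.9, 1.65 and 3.10 FPKM, and H2-DMa, at 111, 22.8 and 36.2. Costimulatory genes were higher in IFNg in 7 of 20 members and in TNFa in 0, among them Cd40, at 1059, 147 and 14.9 FPKM, and Cd274, the ligand PD-L1, at 316, 20.0 and 8.93. For Cd40 the TNFa library stood well above the untreated one. Of 5 measured Fc receptor genes 3 were higher in IFNg, with Fcgr4 at 1165, 43.4 and 120.0 FPKM and Fcgr1 at 1233, 285 and 319.5.

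**Figure D3:**
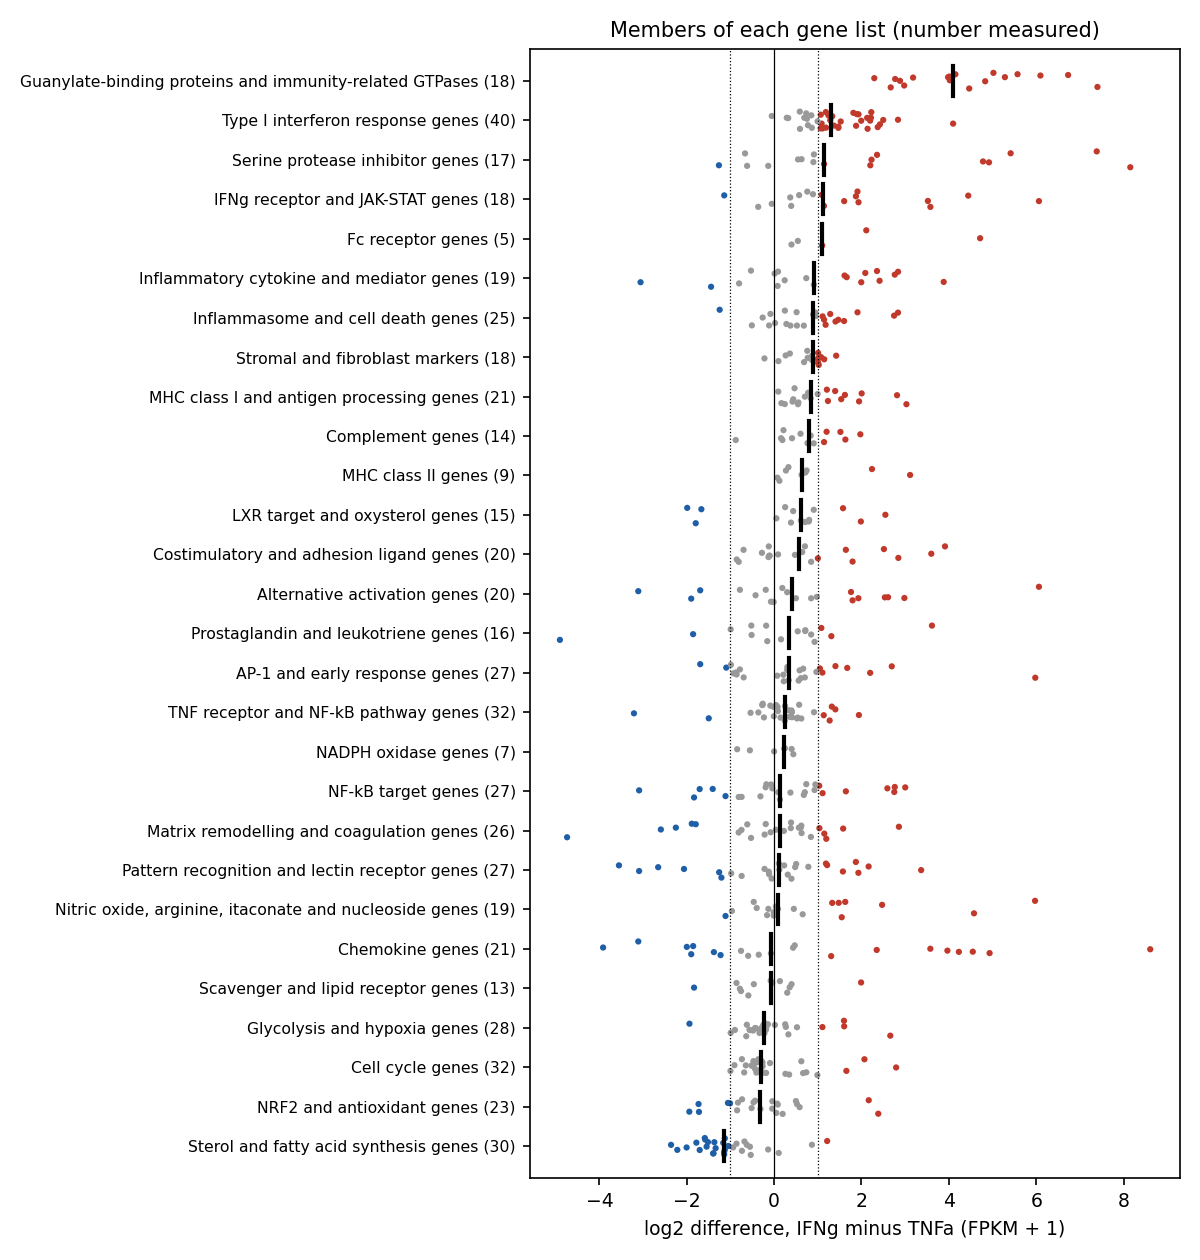
Each point is a measured member of a gene list at its log2 difference, IFNg minus TNFa, on the FPKM + 1 scale; red and blue points are at least 2-fold higher in IFNg and in TNFa, and the black bar is the list's median. The guanylate-binding proteins and GTPases stand at 18 of 18 on the IFNg side and the sterol and fatty acid synthesis list at 19 of 30 on the TNFa side; over all genes compared the shares are 7.48% and 4.82%.

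Complement genes were higher in IFNg in 5 of 14 measured members and in TNFa in 0. C1ra, a protease of the classical pathway, stood at 10.7 FPKM in IFNg, 1.98 in TNFa and 2.03 untreated, and Cfb, of the alternative pathway, at 49.6, 15.4 and 3.94. Stromal cells also express C1ra and C1s1, and the summed stromal markers were 292 FPKM in IFNg and 139 in TNFa; their part in the result was not tested. Inflammasome and cell death genes were higher in IFNg in 10 of 25 members, with bounds apart in 5. In TNFa 1 was higher (4%, near the 4.82% of all genes), with overlapping bounds. Mlkl, the effector of necroptosis, stood at 151 FPKM in IFNg, 21.6 in TNFa and 17.2 untreated. Casp4, which senses intracellular lipopolysaccharide, stood at 64.0, 16.3 and 12 FPKM.

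Pattern recognition and lectin receptors divided, with 7 of 27 higher in IFNg and 6 in TNFa, and bounds apart in 3 and 4 of these. Nod1, a sensor of bacterial peptidoglycan, stood at 54.7 FPKM in IFNg, 4.40 in TNFa and 7.87 untreated. Tlr9, the receptor of CpG DNA, stood at 28.7, 5.64 and 51.7 FPKM, both stimulated libraries lying below the untreated one. Matrix remodelling and coagulation genes divided too, 5 of 26 to each side. The bounds were apart in 1 of those higher in IFNg and in 5 of those higher in TNFa. The proteases Mmp14, at 173 FPKM in TNFa, 35.6 in IFNg and 4.53 untreated, and Mmp9, at 15.0, 1.65 and 0.746, were on the TNFa side with the bounds apart. Tissue factor, F3, was on the IFNg side at 10.8, 0.623 and 0.132 FPKM in IFNg, TNFa and the untreated library; the stromal sum above moved with that side of this list, and its part was not tested.

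Sterol and fatty acid synthesis was the pathway list with the most members on the TNFa side. Of 30 measured genes 19 were higher in TNFa and 1 in IFNg, the bounds were apart in 10 and 0, and the median log2 difference was -1.14 beside -0.06 for all genes. The IFNg library was the lowest of the 8 for 20 of the 30, beside 22.6% of genes compared. Mvd, an enzyme of the mevalonate pathway, stood at 4.13 FPKM in IFNg, 25.3 in TNFa and 33.3 untreated, so TNFa was near the untreated level and IFNg below it. Hsd17b7, a later enzyme of cholesterol synthesis, stood at 5.53, 25.2 and 3.68 FPKM, so here TNFa lay above and IFNg near. Fasn, the fatty acid synthase, stood at 8.86, 28.6 and 26.0 FPKM, and Stard4, a cholesterol carrier, at 2.75, 16.4 and 12. The exception was Pmvk, another mevalonate enzyme, at 70.8, 29.9 and 25.3 FPKM, with overlapping bounds. Of 15 genes of the LXR receptors, which sense oxysterols, 3 were higher on each side. The cholesterol exporters differed in opposite directions: Abca1 stood at 12.8 FPKM in IFNg, 53.9 in TNFa and 41.0 untreated, and Abcg1 at 36.3, 5.39 and 98.9.

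**Figure D4:**
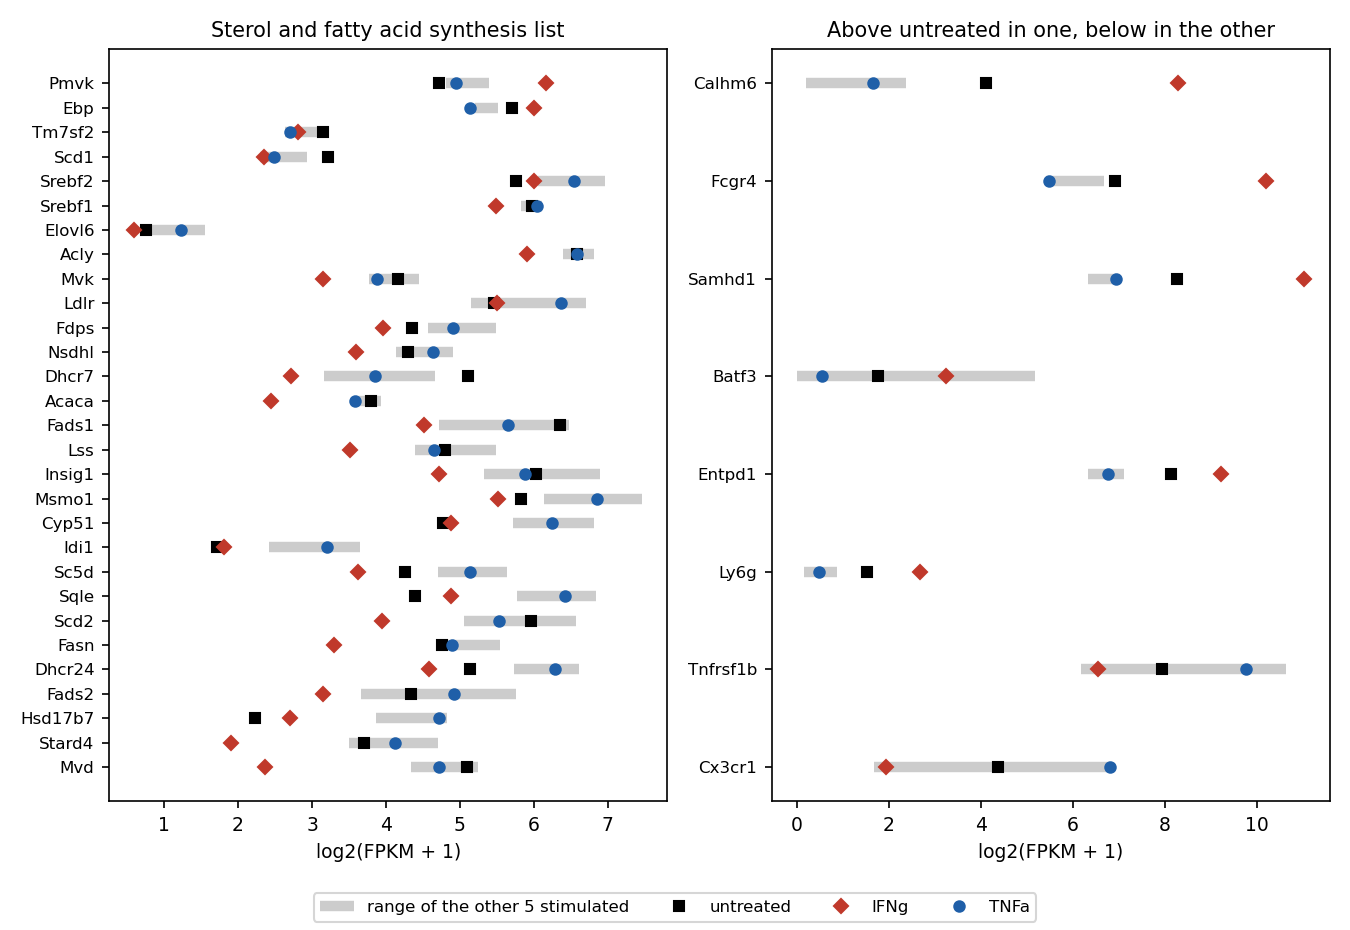
log2(FPKM + 1) in the untreated, IFNg and TNFa libraries, with the range of the other 5 stimulated libraries as a grey bar; the left panel holds measured sterol and fatty acid synthesis genes and the right panel the 8 genes at least 2-fold above untreated in one stimulated library and at least 2-fold below it in the other. In the left panel the IFNg marker lies left of the TNFa marker for most genes, and Pmvk at the top, at 70.8 FPKM in IFNg, is an exception.

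In glucose metabolism 4 of 28 measured glycolysis and hypoxia genes were higher in IFNg (14.3%, beside 7.48% of all genes). In TNFa 1 was higher (3.57%), near the 4.82% of all genes. The median log2 difference was -0.23, lower than the -0.06 of all genes. Hk3, a hexokinase, stood at 710.3 FPKM in IFNg, 112 in TNFa and 142 untreated, and Pfkp, a phosphofructokinase, at 458, 150.2 and 86.5. Slc2a1, the glucose transporter GLUT1, was high after both agents, at 301, 332 and 17.3 FPKM. It stood at 69.1 to 499 FPKM in the other 5 stimulated libraries. NRF2 and antioxidant genes were higher in TNFa in 5 of 23 (21.7%, beside 4.82% of all genes). In IFNg 2 were higher (8.7%), near the 7.48% of all genes. Hmox1, heme oxygenase, stood at 320.1 FPKM in IFNg, 1064 in TNFa and 288 untreated, and Slc7a11, a cystine transporter, at 1.92, 10.2 and 0.808. The 2 on the IFNg side were the metallothioneins Mt1, at 1342, 298 and 233 FPKM, and Mt2, at 463, 88.0 and 25.3. Among AP-1 and early response genes 7 of 27 (25.9%) were higher in IFNg and 2 (7.41%) in TNFa, beside 7.48% and 4.82% of all genes. The latter included the growth regulator Myc at 24.9 FPKM in IFNg, 82.6 in TNFa and 3.41 untreated. All 7 measured NADPH oxidase genes were within 2-fold. In the cell cycle list 3 of 32 (9.38%, beside 7.48% of all genes) were higher in IFNg and 0 in TNFa, with Ccnd2, a G1 cyclin, at 111, 15.2 and 2.99 FPKM. The median log2 difference of that list was -0.30. The IFNg library was the lowest of the 8 for 13 of the 32, beside 22.6% of genes compared.

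Other lists gave counts in both directions, to be read beside 7.48% higher in IFNg and 4.82% higher in TNFa over all genes compared. The nitric oxide, arginine, itaconate and nucleoside genes were higher in IFNg in 7 of 19 members and in TNFa in 1, with bounds apart in 3 and 1. The alternative activation genes were higher in IFNg in 7 of 20 and in TNFa in 3, with bounds apart in 5 and 3. Scavenger and lipid receptors were higher in IFNg in 1 of 13 (7.69%), near the share of all genes. This was Mertk, a receptor for apoptotic cells, at 9.76 FPKM in IFNg, 1.71 in TNFa and 23.1 untreated. The member higher in TNFa was Olr1, a receptor for oxidised lipoprotein, at 16.5, 61.2 and 0.0341 FPKM. Of the marker lists of other cells, dendritic cell markers were higher in IFNg in 2 of 5 and in TNFa in 0. Neutrophil markers were higher in IFNg in 1 of 14 (7.14%), near the share of all genes, and in TNFa in 0. B and plasma cell markers were higher in TNFa in 2 of 5, Sdc1 and Blnk, and in IFNg in 0, with a median log2 difference of 0.13. Blnk stood at 13.9 FPKM in IFNg, 40.8 in TNFa, 104 untreated and 37.4 to 45.3 in the other 5 stimulated libraries. Sdc1 stood at 45.4, 182 and 15.0 FPKM and reached 229 in CpG. The single erythroid marker measured was within 2-fold. Macrophage markers were higher in IFNg in 2 of 11 and in TNFa in 2.

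Genes high after both agents were also listed, by the lower of their differences from untreated. Id1, an inhibitor of transcription factors, stood at 50 FPKM in IFNg, 47.5 in TNFa and 1.08 untreated. Adora2b, an adenosine receptor, stood at 58.5, 48.0 and 1.12 FPKM, and Tarm1, a myeloid cell receptor, at 43.5, 30.6 and 0.245. In the other 5 stimulated libraries Id1 stood at 61.4 to 77.9 FPKM, above both, so its high level was not particular to this pair. Adora2b ran there from 5.98 to 108 FPKM and Tarm1 from 0.999 to 65.8. Both comparisons with untreated use the same untreated library.

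Set beside all 8 libraries, the genes higher in IFNg were mostly at their highest there. Of 939 such genes with status OK in all tables, the IFNg library was the highest in 751 (80.0%), beside 17.0% of 12487 genes compared. Of 598 genes higher in TNFa, the TNFa library was the highest in 150 (25.1%, beside 4.45%) and the IFNg library the lowest in 326 (54.5%, beside 22.6%). The choice of genes by this same contrast fixes part of these shares. By the same 2-fold rule, in either direction, the TNFa library differed from IL1b at 2.94% of genes, from CpG at 3.99%, from MALP2 at 4.73%, from TGFb1 at 8.55%, from IL4 at 11.7% and from IFNg at 12.3%. The IFNg library differed from CpG at 12.1%, from IL1b at 12.9%, from MALP2 at 13.5%, from TGFb1 at 17.0% and from IL4 at 20.5% of genes. TNFa thus stood nearest to IL1b, and IFNg was at over 12% from each of the other 6. By the estimate from the bounds, IFNg was also the shallower library of the pair.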

How the data were processed

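Poly(A) RNA-seq levels of 8 libraries, 1 library per group, were used. Per the submitters' processing notes, TopHat 1.3.1, Cufflinks 1.2.1 and Cuffdiff 1.2.1 were used with mm9; their roles and options, the annotation and whether strand was used are not stated there, and reads of antisense or overlapping genes cannot be told apart. The authors deposited 7 tables of FPKM with confidence bounds, each with the untreated and 1 stimulated library, per the file headers. Their comparison tables hold a q-value and a call, per the file headers, and served only as an alternative and to mark the genes flagged below.

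The untreated columns differ by 1 factor per table, by which the tables were joined. A gene was counted at status OK, 1 FPKM or more in either library and a log2((IFNg + 1)/(TNFa + 1)) of 1 or more in size. Genes named were the 12 farthest apart per direction among those with a symbol and bounds apart, up to 4 members per list, receptor genes, genes raised alike, the most abundant and those at the limit; the others named are list members chosen after their values were seen. The 27 pathway and 7 cell type lists and the members were chosen with earlier results of these data known. Symbols came from GENCODE and promoters from RefSeq (GRCm38.p6); locus coordinates are mm9, counted from 1. List genes without a match were not analysed here. Some genes that the naming rule picks are not reported here. Genes of near-identical families can share reads. The counting was tested on simulated data. The tools were pandas 2.3.3, numpy 2.4.6, matplotlib 3.10.9 and Python 3.11.15. The alternatives were a pseudocount of 0.1 FPKM, a floor of 5 FPKM, no floor, centring, unjoined tables, bounds apart, the authors' call and protein-coding genes.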

Additional observations from a re-analysis of the deposited data

Results flagged for a closer look

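Genes stood at least 2-fold above the untreated level in one of the stimulated libraries and at least 2-fold below it in the other in 8 named cases; the difference was not tested, because each group holds 1 library. Differences are log2, IFNg minus TNFa. On the IFNg side, Calhm6 differed by 6.64. Fcgr4, an activating Fc receptor, differed by 4.72, and Samhd1 by 4.10. Batf3, a transcription factor of dendritic cells, stood at 8.48 FPKM in IFNg, 0.466 in TNFa and 2.39 untreated, a difference of 2.69. Entpd1, which breaks down extracellular ATP, stood at 599 FPKM in IFNg, 107 in TNFa and 279.8 untreated, a difference of 2.47. Ly6g, a neutrophil marker, stood at 5.41, 0.398 and 1.88 FPKM, a difference of 2.20, while the summed neutrophil markers were 462, 296 and 315 FPKM; their part in it was not tested. On the TNFa side, Cx3cr1 differed by -4.86 and Tnfrsf1b by -3.21. Tnfrsf1b stood at 1584 FPKM in MALP2 and 1556 in CpG, above TNFa, and at 71.1 in IL4, below IFNg. The other 5 stimulated libraries were also below untreated for Calhm6, Fcgr4, Samhd1, Entpd1 and Ly6g. Their highest levels there were 4.18, 102, 128, 136 and 0.822 FPKM, so lying below untreated was not particular to TNFa. Batf3 reached 35.0 FPKM in IL4 and did not pass 0.422 in the rest. The authors did not call the difference from untreated for Ly6g in either library, Batf3 and Tnfrsf1b in IFNg, or Fcgr4 in TNFa.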

How the results depend on the processing

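No named gene at least 2-fold apart changed direction, but the alternatives could not have made one do so. A pseudocount or a floor leaves the sign of a difference as it is. Centring and leaving out the join move genes by far less than 2-fold. The chemokine median, -0.07, became 0.43 with a floor of 5 FPKM and 0.14 with no floor, and without the join Nfkb1, Id1 and Gm23119, all within 2-fold, went from slightly above to slightly below 0. The count higher in TNFa (606) became 977 with a pseudocount of 0.1 FPKM, 283 with bounds apart, 364 with the authors' call against untreated and 270 for protein-coding genes with bounds apart, an alternative chosen after seeing the data; the count higher in IFNg (941) became 532 with bounds apart and 494 for protein-coding genes with bounds apart. Stricter criteria keep fewer genes by construction; otherwise the cause was not tested. The share on the IFNg side, 60.8% of the genes counted, was 67.2% with differences centred on the median gene, 55.0% without the join and 55.0% with the smaller pseudocount. The median for guanylate-binding proteins became 4.86 and that for serine protease inhibitors 2.32 with the smaller pseudocount, and that for cytokines 1.83 with a floor of 5 FPKM and 0.24 with no floor. Of 142 named genes, 23 moved by over 1.5 times with the smaller pseudocount, which also put Cx3cr1 (-5.24) and Cav1 (-5.22) before Ptges (-5.08) on the TNFa side and Serpina3f (9.62) level with Cxcl9 (9.62) on the IFNg side. No paired analysis was possible because each group holds 1 library, and none could be left out. The bounds describe a library and not the spread between cultures. If the IFNg library is the shallower, as estimated from the bounds, its low values are the less precise.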
